A study of Mus musculus with 3 samples.

Results

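Replication-dependent histone genes encode the core histones H2A, H2B, H3 and H4 and the linker histone H1 that package newly made DNA. In this mouse annotation they carry symbols that start with Hist1 to Hist4, for the genomic cluster, followed by the family, and the members are all genes with such a symbol except names that end in -ps and a digit. By that rule 69 of 55536 annotated genes were taken: 6 H1, 20 H2A, 18 H2B, 12 H3 and 13 H4 genes. Of these, 56 lie in the Hist1 cluster, 10 in Hist2, 2 in Hist3 and 1 in Hist4, and 67 are annotated as protein-coding. Hist1h2aj and Hist1h2al are of a pseudogene type. The libraries are 3 total RNA-seq libraries of F121-9, a mouse embryonic stem (ES) cell line from a cross of the Cast and 129 strains, taken at passage 14 with 400 ng of RNA each. The labels name no treatment and no further allele, and they give 1 donor for all 3 libraries. The 3 libraries are labelled as biological replicates and form 1 group, so every comparison is between libraries, between genes or between the quantifications of the same library, and each p-value rests on how far these libraries differ, whether the source is biological or technical. In such bulk RNA, fewer cells in S phase and less histone mRNA per cell cannot be told apart.

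Most histone mRNAs of this kind are made in S phase, carry no introns and end in a conserved stem-loop in place of a poly(A) tail. The stem-loop binding protein Slbp and the U7 small nuclear ribonucleoprotein direct the cleavage that makes this end, and NPAT drives transcription of the clusters downstream of cyclin E and CDK2. ES cells divide fast and spend much of their cycle in S phase, and the gene families are repeated in nearly identical copies, so that a read often fits several genes.

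The abundance unit is TPM, in which counts are corrected for transcript length and scaled to the same sum in every library. Values come from the gene tables with RSEM-style columns unless the kallisto-style transcript tables are named. Estimated counts in all were 9765384 to 10610782 per library in the former and 17717726 to 19156106 in the latter. Replicate 1 stood apart: the mean chi-square between libraries was 4.48 per gene for replicates 1 and 2 and 4.32 for replicates 1 and 3, against 1.249 for replicates 2 and 3, where counting noise alone gives about 1. The markers fixed for ES cells (Pou5f1, Sox2, Nanog, Zfp42, Klf4 and Esrrb) all had at least 1 TPM in all 3 libraries, with a summed level of 1844 to 2128 TPM. Of these 6, 5 differed between libraries beyond counting noise (chi-square), among them Pou5f1 with 611, 431 and 442 TPM. Over all genes 12.4% of 13391 did. The 6 held 8834 to 22362 counts each over the 3 libraries. This test finds smaller changes at high counts, so the 2 shares are not a like comparison. The 8 fibroblast markers summed to 2.92 to 4.17 TPM, with 4 of the 8, Col3a1, Dcn, Lum and Postn, listed at 0. The other 4 were detected: Pdgfrb with 1.81, 1.26 and 1.53 TPM, and Thy1, Col1a1 and Col1a2 with 30, 79 and 31 counts over the 3 libraries. The part of such cells in the results was not tested. The 8 markers of differentiated cells summed to 10.8 to 12.3 TPM.

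H2A transcripts made up most of the histone signal, and their total was lower in replicate 1 than in the others, while the other 4 families together lay within 60.1 to 61.8 TPM. Within that sum H3 was also lowest in replicate 1 and H2B was highest there. The 20 H2A genes summed to 123 TPM in replicate 1, 252 TPM in replicate 2 and 252 TPM in replicate 3, a mean of 209 ± 74.8 TPM (SD, n = 3). The 49 histone genes outside H2A summed to 60.1, 61.5 and 61.8 TPM in the same libraries, and to 47.7, 40.3 and 45.9 TPM in the kallisto-style tables. The split of H2A from the rest was chosen after the values were seen. All 69 genes together reached 270 ± 75.8 TPM (SD, n = 3), or 0.027% ± 0.00758 of all TPM.

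H2B, the partner of H2A in the nucleosome, summed to 33.6, 25.2 and 28.6 TPM. H3 summed to 12.8, 22.8 and 19.3 TPM, and H4 to 10.2, 9.50 and 11.2 TPM. H1, the linker histone, summed to 3.47, 4.05 and 2.79 TPM. The means fell in the order H2A, H2B, H3, H4, H1, as did the sums in each library, but not every neighbour was separated by more than counting error. The 95% counting intervals of H2B and H3 in replicate 2 overlap (49.3 to 81.7 and 41.4 to 71.6 counts), as do those of H3 and H4 in replicate 1 (24.4 to 48.7 and 20.2 to 42.8 counts). These intervals are of counts and are not corrected for length, whereas the order is of TPM. The effective lengths, averaged with counts as weights, were 546 nt for H2B, 490 nt for H3 and 578 nt for H4. In the kallisto-style tables H3 was above H2B in replicate 2, at 16.4 and 15.5 TPM.

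**Figure D1:**
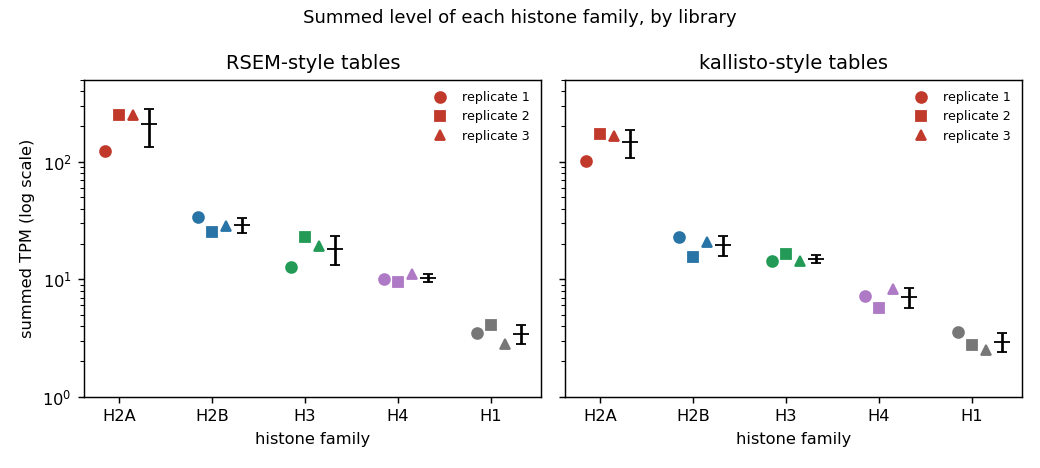
Summed TPM of the 5 histone families on a log axis, with 1 point per library (circle replicate 1, square replicate 2, triangle replicate 3) and the mean ± SD (n = 3) in black, for the RSEM-style tables on the left and the kallisto-style tables on the right. H2A lies above the other families in every library of both, and its replicate 1 point lies at 123 TPM against 252 TPM in both others in the RSEM-style tables.

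The counts behind these sums are small, so their counting error is wide. The H2A genes held 243 counts in replicate 1 (95% exact Poisson interval 213 to 276), 432 in replicate 2 and 461 in replicate 3 (420 to 505), after rounding. The interval of replicate 1 does not reach those of the other libraries. H2B held 84 counts in replicate 1 (67.0 to 104) and 72 in replicate 3 (56.3 to 90.7), which overlap. H3 rested on 35, 55 and 49 counts, H4 on 30, 23 and 32, and H1 on 26, 29 and 17. These intervals cover counting error only.

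In the kallisto-style tables the H2A sum was 101, 171 and 167 TPM, again lowest in replicate 1. The mean of replicates 2 and 3 exceeded replicate 1 by 2.06-fold in the RSEM-style and 1.67-fold in the kallisto-style tables.

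H2afx, which encodes the H2A.X variant made outside the Hist clusters, shares 31-base windows with all 20 H2A genes, up to 120 with Hist1h2ab, and was highest in replicate 1, where the H2A sum was lowest. It had 349, 323 and 310 TPM, on 3153, 2784 and 2758 counts. Added together, the H2A genes and H2afx held 3396, 3216 and 3218 counts, or 326, 336 and 323 CPM (counts scaled to the library total on genes). The H2A genes alone stood at 23.3, 45.1 and 46.2 CPM and H2afx alone at 302, 291 and 276 CPM. Most of each sum was H2afx, so a near-even sum is set by its level and cannot show whether reads moved between them. This sum was formed after the values were seen, and the part of shared windows in the difference was not tested.

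A few H2A genes carried most of the histone signal. Hist1h2ah (ENSMUSG00000069302.5, chromosome 13, 22035164 to 22035568, 1 exon) had 59.3, 93.8 and 71.4 TPM in replicates 1 to 3. Hist1h2ap (ENSMUSG00000094777.2, chromosome 13, 21833026 to 21833507, 1 exon) had 38.6, 74.3 and 85.5 TPM. Hist1h2ah was the higher in replicates 1 and 2 and Hist1h2ap in replicate 3. Both were lowest in replicate 1, and together they made up 52.4% ± 2.09 (SD, n = 3) of histone TPM, or 58.0% ± 8.61 in the kallisto-style tables. The next 3 H2A genes by mean were uneven. Hist1h2aj was listed at 0 in replicate 1 and at 47.9 and 7.74 TPM in the others. Hist1h2ai was listed at 0, 4.11 and 40.7 TPM. Hist1h2af had 8.38, 20.7 and 25.5 TPM.

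These 5 genes share nearly all of their sequence with other genes. Only 8.8% of the 31-base windows of Hist1h2ah occur in no other gene, against 6.64% for Hist1h2ap, 6.52% for Hist1h2aj, 7.99% for Hist1h2ai and 14.1% for Hist1h2af. The first 60 coding bases of 5 H2A genes, the 4 coding ones above and Hist1h2an, show how alike they are. Capitals mark bases that differ from Hist1h2ap, and the stretch was read from the M21 transcripts of mm10.
Hist1h2ap: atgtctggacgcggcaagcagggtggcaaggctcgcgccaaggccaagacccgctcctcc
Hist1h2ah: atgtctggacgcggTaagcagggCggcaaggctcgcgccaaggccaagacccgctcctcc
Hist1h2af: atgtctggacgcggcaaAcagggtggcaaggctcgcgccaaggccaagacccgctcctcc
Hist1h2ai: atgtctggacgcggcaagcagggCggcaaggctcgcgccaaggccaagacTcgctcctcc
Hist1h2an: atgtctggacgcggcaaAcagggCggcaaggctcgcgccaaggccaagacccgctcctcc
These stretches lie at chr13:21833416-21833475, minus strand for Hist1h2ap, at chr13:22035493-22035552, minus strand for Hist1h2ah, at chr13:23533911-23533970, plus strand for Hist1h2af, at chr13:21716422-21716481, plus strand for Hist1h2ai and at chr13:21787159-21787218, minus strand for Hist1h2an. Over 384 coding bases compared from the start codon, Hist1h2ah differed from Hist1h2ap at 3 positions. Over 390 bases, Hist1h2ai and Hist1h2an each differed from it at 5 and Hist1h2af at 6.

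The spread between libraries was widest for single H2A genes, and was not ordered by the share of unique windows. Among the histone genes with at least 30 counts over the 3 libraries, Hist1h2aj and Hist1h2ai had coefficients of variation of 138% and 151% in their counts, while the counts of the H2A family as a whole had 31.3%. Hist1h2bc, with 66.3% of windows of its own, had 10.1%, but Hist3h2a, with 67.9%, had 43.3%, and Hist1h2ah, with 8.8%, had 20.7%. In all, 13 histone genes were listed at 0 in at least 1 library and above 3 counts in another, and 7 of these were H2A genes.

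**Figure D2:**
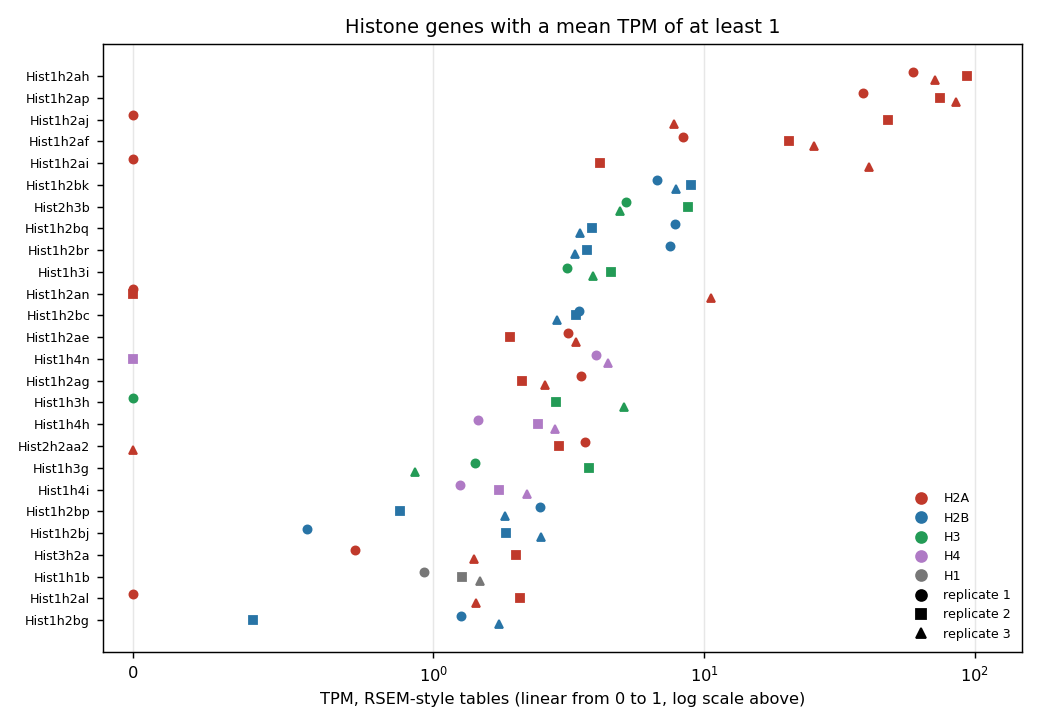
TPM per library (circle replicate 1, square replicate 2, triangle replicate 3; horizontal axis linear from 0 to 1 and logarithmic above) for the 26 histone genes with a mean of at least 1 TPM, coloured by family. The H2A genes Hist1h2aj and Hist1h2ai run from 0 to above 40 TPM between libraries, whereas Hist1h2bk and Hist1h2bc stay within a narrow range.

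Few histone genes were measured well above their floor. With at least 1 TPM in all 3 libraries as the criterion, 13 of 69 members were expressed (18.8%), against 52.1% of protein-coding genes, and 20 were when replicate 1 was left out. A count of 0 allows up to 3 counts, which for these short transcripts is worth 0.0554 to 3.35 TPM (median 1.248 TPM), against a median of 0.208 TPM over protein-coding genes. For 41 of the 69 genes those 3 counts are worth more than 1 TPM, so 0 counts do not place them under 1 TPM. Of the 69, 17 had more than 3 counts in every library, 7 had at least 10, and 10 were listed at 0 in all 3. The deposited interval around TPM, whose level is not given in the sources used here, had its lower bound at or above 1 TPM in all 3 libraries for 5 genes. In 74 of 207 values the TPM itself lay outside that interval, including 59.3 TPM for Hist1h2ah in replicate 1, for which the upper bound was 54.4 TPM.

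Among the other H2A genes, Hist1h2ae had 3.15, 1.91 and 3.35 TPM, and Hist1h2ag had 3.52, 2.13 and 2.59 TPM. Hist1h2ak, Hist1h2ao, Hist2h2ab and Hist1h2aa were listed at 0 in all 3 libraries, and Hist1h2aa had 1.12 ± 0.391 TPM (SD, n = 3) in the kallisto-style tables. Hist1h2aa, Hist1h2ba and Hist1h1t are germ-line forms, and none of these 3 reached 1 TPM in all libraries.

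Among the H2B genes, Hist1h2bk led with 6.67, 8.91 and 7.87 TPM. Hist1h2bc, a gene of 2 exons whose annotated transcript is 1156 nt long, had 3.46, 3.37 and 2.86 TPM, the steadiest of the expressed members. Hist1h2bq had 7.79, 3.84 and 3.48 TPM, and Hist1h2br had 7.49, 3.68 and 3.32 TPM. The last 2 genes each have a 381-nt transcript of identical sequence, to which the same value was given in every library, 7.49 TPM in replicate 1. Their longer transcripts held the little that remained, 0.30 TPM for Hist1h2bq-202 in replicate 1. Hist1h2bp, with 2.48, 0.89 and 1.83 TPM, had all of its signal in replicate 1 in Hist1h2bp-201. Hist1h2bh, Hist1h2bn and Hist1h2ba were listed at 0.

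Hist2h3b, which encodes H3 in the Hist2 cluster, had 5.16, 8.75 and 4.90 TPM, and Hist1h3i had 3.11, 4.51 and 3.88 TPM. Hist1h3f was listed at 0. In H4, Hist1h4n had 3.99, 0 and 4.41 TPM, and the 2 expressed H4 genes were Hist1h4h with 1.46, 2.44 and 2.82 TPM and Hist1h4i with 1.25, 1.75 and 2.22 TPM. Hist1h4b and Hist2h4 were listed at 0. No H1 gene had 1 TPM in every library. The highest were Hist1h1b with 0.97, 1.27 and 1.48 TPM and Hist1h1a with 0.73, 1.28 and 0.49 TPM, and the lowest was Hist1h1d, at 0.06 TPM in replicate 2 and listed at 0 in the others. H1 transcripts are the most distinct of the 5 families, with a median of 96.3% of their windows found in no other gene, against 19.2% for H2A, 40.7% for H2B, 35.8% for H3 and 52.1% for H4.

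The spread between libraries was tested gene by gene over all genes that passed a filter on low counts. Of the 69 members 7 passed it: Hist1h2ah, Hist1h2ap, Hist1h2af, Hist3h2a, Hist1h2bk, Hist1h2bc and Hist2h3b. With edgeR's quasi-likelihood dispersion test none was called variable at an adjusted p under 0.05, against 0.0373% of 13391 genes tested, and limma-voom also called 0 of the 7. In simulated counts with replicate 1 changed, edgeR recovered 0% of 1.5-fold and 37.1% of 2-fold changes at mean counts of 20 to 200. The lack of calls therefore does not show that the 7 were steady. In edgeR 4 of the 7 had an unadjusted p under 0.05, as did 610 of the 13391 genes. Those 4 were all of the H2A genes tested, Hist1h2ap, Hist1h2af, Hist3h2a and Hist1h2ah. Of these, Hist1h2ap, Hist1h2af and Hist1h2ah have at most 14.1% of windows of their own, so they are not separate results. The lowest adjusted p was that of Hist1h2ap, 0.411 by edgeR with Benjamini-Hochberg adjustment. With replicate 2 left out it was 0.0465, and Hist1h2ap was then the only member called of 8 tested, against 9 of 13583 genes. Without the filter on low counts, 2 of 59 members were called, against 34 of 22939 genes. They were Hist1h2ai and Hist1h2aj, with edgeR adjusted p of 0.00111 and 0.00174. Of the windows of Hist1h2aj, 93.5% also occur in Hist1h2ai, so these calls are not separate results. In replicates 2 and 3 Hist1h2aj held 54.2 and 9.06 counts, and Hist1h2ai held 5.8 and 59.4.

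Against counting noise alone, 3 of the 7 differed between libraries by a chi-square test with Benjamini-Hochberg adjustment, where 12.4% of all genes tested did. Hist1h2ap stood at 7.90, 15.8 and 18.1 normalised CPM (adjusted p = 2.94e-08). Hist1h2ah stood at 8.85, 14.7 and 11.1 CPM (adjusted p = 0.00718), and Hist1h2af at 1.24, 3.15 and 3.82 CPM (adjusted p = 0.0126). In all 3 genes replicate 1 was the lowest library. Without replicate 1 none of the 3 was called, but then only 27 of 13489 genes were, against 1656 of 13391 with all libraries. Hist1h2bc and Hist1h2bk, the H2B genes tested, had adjusted p of 0.956 and 0.821. The 3 genes called share most of their windows with other genes, so their calls are not separate results. The test takes the estimated counts as given and leaves out the error of assigning shared reads.

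The 2 quantifications of the same libraries differed for several members. Of 28 histone genes with at least 1 TPM averaged over both tables and 3 libraries, 5 differed by at least 1 on the log2(TPM + 1) scale at an adjusted p under 0.05 (limma, paired by library): 4 were lower in the kallisto-style tables, where 2.46% of 14989 genes were, and 1 was higher, where 9.85% were. The median difference, kallisto-style minus RSEM-style, was -0.29 over the 28 histone genes and -0.25 over all genes tested. After TPM was rescaled to the protein-coding sum, the median over all genes was -0.03 and 0 of 33 histone genes were called. Over all genes 2002 of 15808 were called after rescaling, against 1845 of 14989 on the deposited TPM. Of the 5 genes called on the deposited TPM, 3 kept a difference of at least 1 after rescaling but not the adjusted p: Hist1h2aj at -3.05 (limma adjusted p = 0.115), Hist2h2aa2 at -1.50 (0.0987) and Hist2h2aa1 at 1.33 (0.0503). The other 2 kept the adjusted p but not the size, Hist1h2af at -0.87 (limma adjusted p = 0.0106) and Hist1h2bq at -0.88 (0.0292).

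Hist1h2af differed by -1.08 ± 0.139 (SE) with a limma adjusted p of 0.00158, at 4.84, 7.14 and 11.1 kallisto-style TPM. Hist1h2bq differed by -1.01 ± 0.164 (adjusted p = 0.00335). Hist1h2aj differed by -2.91 ± 1.01 (adjusted p = 0.0453) and was at or near 0 in all 3 libraries of the kallisto-style tables. Hist2h2aa2 differed by -1.39 ± 0.458 (adjusted p = 0.0385), and Hist2h2aa1 by 1.06 ± 0.316 (adjusted p = 0.0282). Hist1h2ah, the highest member by mean RSEM-style TPM, had 27.5, 61.6 and 37.98 kallisto-style TPM, a difference of -0.86 that misses the size set, and Hist1h2ap had 49.1, 81.7 and 78.9 TPM, a difference of 0.12, so that Hist1h2ap was higher than Hist1h2ah in all 3 libraries of the kallisto-style tables.

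Hist2h2aa1 and Hist2h2aa2 are near copies in the Hist2 cluster on chromosome 3. No window of Hist2h2aa2 is its own, and 89.6% of the windows of Hist2h2aa1 also occur in Hist2h2aa2. In the RSEM-style tables Hist2h2aa2 had 3.63, 2.90 and 0 TPM and Hist2h2aa1 had 0, 0 and 1.90 TPM. In the kallisto-style tables Hist2h2aa2 was listed at 0 throughout and Hist2h2aa1 had 2.29, 1.49 and 2.21 TPM. Their sum was 2.81 ± 0.869 TPM in the former and 2.00 ± 0.442 TPM in the latter (SD, n = 3). All 5 genes that differed had at most 14.1% of windows of their own. Of the 28 genes, 16 had under 20% and held all 5 calls, and the 12 with at least 20% ranged from -0.48 to 0.28.

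**Figure D3:**
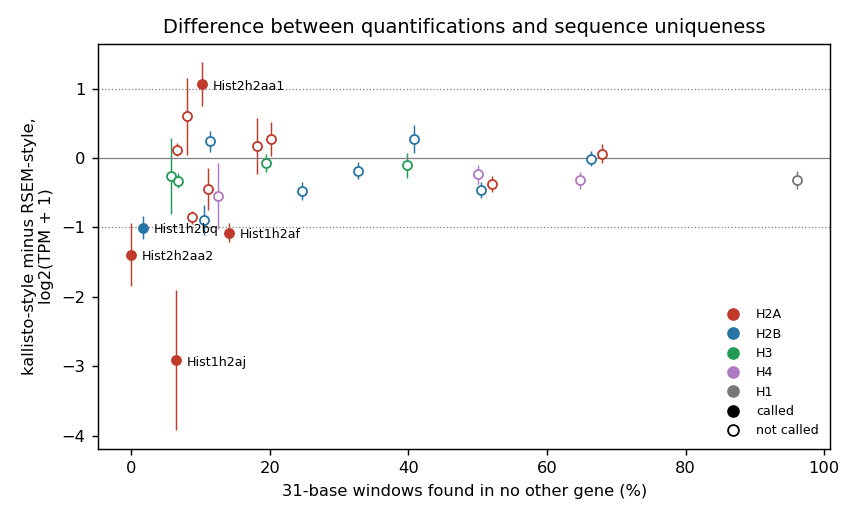
Kallisto-style minus RSEM-style log2(TPM + 1), mean over 3 libraries ± SE, against the percentage of 31-base windows found in no other gene (highest over a gene's transcripts), for 28 histone genes coloured by family, with filled points for genes called. The 5 called genes lie at or below 14.1% unique windows, and dotted lines mark a difference of 1.

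At transcript level 3 of 28 histone transcripts were called (limma), all lower in the kallisto-style tables, where 6.27% of 31489 transcripts were and 9.99% were higher. Hist1h2bq-201 and Hist1h2br-202, the identical pair, both differed by -1.02 ± 0.213 (SE, adjusted p = 0.0217), and Hist1h2af-201 differed by -1.08 ± 0.158 (adjusted p = 0.00868).

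The annotated ends of these transcripts were compared with the stem-loop that marks this class of mRNA. A match to the histone stem-loop consensus was found in 48 of 77 histone transcripts, from 46 genes, against 0.221% of 141767 transcripts in the whole annotation. Capitals mark the 16-base match in 4 members, chosen to show the forms found in H2A, H2B and H4.
Hist1h2ap: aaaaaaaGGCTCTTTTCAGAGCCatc
Hist1h2bk: caccaaaGGCTCTTTTAAGAGCCactaaac
Hist1h4h: aaccaaaGGCCCTTTTCAGGGCCgcccaca
Hist1h4i: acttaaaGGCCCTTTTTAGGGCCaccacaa
The sites lie at chr13:21833026-21833051, minus strand, chr13:22036293-22036322, plus strand, chr13:23531451-23531480, plus strand and chr13:22040959-22040988, minus strand, in that order. The form seen in Hist1h2ap occurs in 26 genes, 3 of H1, 10 of H2A, 8 of H2B and 5 of H3, and in no H4 gene. The form of Hist1h4h occurs in 7 genes, all of H4. In all 8 forms were found.

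The signal was also summed by the position of the stem-loop in the annotated transcript. In 23 transcripts the annotated end lay within 100 bases of the stem-loop, and these held 36.0% ± 3.34 of histone TPM (SD, n = 3). In 25 transcripts it lay further on, by 108 to 4884 bases, and they held 5.03% ± 1.91. The 29 transcripts without a match held 59.0% ± 5.19. Single genes carried much of this: by mean, Hist1h2ap held 66.1 of the 95.8 TPM of the first class. Hist1h2ah held 74.8 of the 161.7 TPM of the last. The shares therefore depend on how these 2 genes are annotated and on how shared reads are assigned. In the kallisto-style tables the order of the mean shares of the first and last of these classes was the opposite: 48.5% ± 1.72 for transcripts that end within 100 bases of the stem-loop, and 45.8% ± 3.15 for those without a match (SD, n = 3). Of those 29, 17 end within 30 bases of their stop codon in the annotation, as does Hist1h2ah, which stops 5 bases past its coding end. No match in such a transcript says only that the letters are not in the annotated sequence.

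Most of the signal was assigned to genes in 2 stretches of chromosome 13. Split wherever neighbours lie over 150 kb apart, the Hist1 cluster on chromosome 13 falls into blocks. The block from 21715763 to 21837530, with 19 genes that include Hist1h2ap, Hist1h2ai and Hist1h2aj, held 45.9% ± 8.90 of histone TPM. The block from 22035164 to 22043676, with 5 genes that include Hist1h2ah, held 33.7% ± 5.78. The block from 23531050 to 23764406 has 29 genes and held 14.9% ± 3.00, and the 10 Hist2 genes on chromosome 3 held 4.38% ± 1.06 (SD, n = 3 in each). In the kallisto-style tables the blocks of 19, 5 and 29 genes held 50.3% ± 7.12, 28.1% ± 6.99 and 13.6% ± 4.23. Of the windows of Hist1h2ah, 88% also occur in Hist1h2ad, which lies in the block of 29 genes. From which block shared reads came was not tested.

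**Figure D4:**
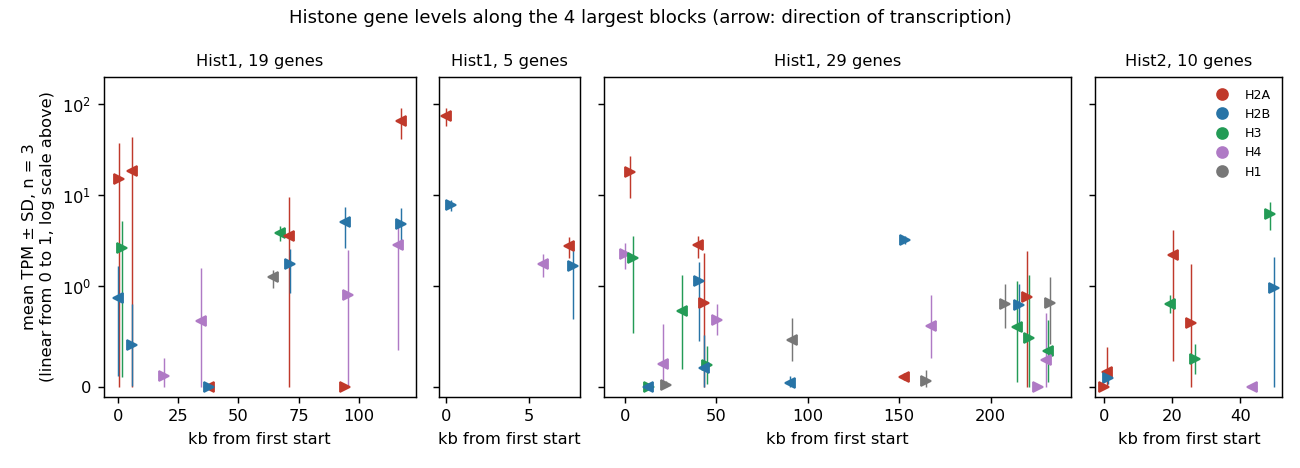
Mean TPM ± SD (n = 3, bars cut at 0) of each histone gene along the 4 blocks of at least 5 genes, by distance of its start from the first start in the block, coloured by family, with arrowheads for the direction of transcription; the vertical axis is linear from 0 to 1 and logarithmic above. The highest points, Hist1h2ah and Hist1h2ap, each have an H2B neighbour that starts close by in the opposite direction and lies lower.

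Many H2A and H2B genes lie head to head, with starts 176 to 306 bases apart, and 13 such pairs were found. In 4 pairs the H2A gene was higher in all 3 libraries, and in 2 pairs the H2B gene was. Hist1h2ah had 74.8 ± 17.5 TPM where Hist1h2bk, 302 bases away, had 7.82 ± 1.12 TPM. Hist1h2ap had 66.1 ± 24.5 TPM and Hist1h2br, 236 bases away, 4.83 ± 2.31 TPM. Hist1h2bc had 3.23 ± 0.324 TPM and Hist1h2ac, 251 bases away, 0.10 ± 0.0346 TPM. In the kallisto-style tables the H2A gene was higher in all 3 libraries in 5 pairs and the H2B gene in 2. Both genes of a pair can share reads with genes elsewhere, so these differences are given as descriptions.

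The promoter of Hist1h2ah, which it shares with Hist1h2bk, is shown because that pair holds the highest H2A and the highest H2B gene by mean RSEM-style TPM. The 200 bases before its RefSeq start on GRCm38.p6, at chr13:22035644-22035843, minus strand, read as follows, with matches on either strand to the CCAAT box, the TATAAA box and the octamer motif in capitals.
Hist1h2ah: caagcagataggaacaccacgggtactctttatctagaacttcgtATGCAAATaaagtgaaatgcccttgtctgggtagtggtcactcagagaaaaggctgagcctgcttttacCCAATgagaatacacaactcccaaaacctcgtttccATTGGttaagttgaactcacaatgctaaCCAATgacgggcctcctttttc
RefSeq promoter windows (250 bases before to 50 after the start) were matched to 62 of the 69 genes. No entry was matched for Hist1h2aj, Hist1h2al, Hist1h2bc, Hist1h3a, Hist1h3f, Hist2h2be and Hist2h4. CCAAT, on either strand, occurred in 53 of the 62 windows (85.5%), against 37.4% of 32851 promoters. All H1, H2A, H2B and H3 windows held it, and 3 of 12 H4 windows did. TATAAA occurred in 35 of 62, against 13.6% of all. The octamer ATTTGCAT occurred in 7 of 18 H2A and 6 of 16 H2B windows and in no H1, H3 or H4 window, against 1.74% of all. None of the 3 motifs contains another, and the windows of head-to-head genes overlap, so the H2A and H2B counts are not independent.

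All but 1 of the 20 H2A genes also overlap an annotated miRNA gene on the opposite strand, and no other histone gene does. These 19 miRNA genes are 129 to 144 nt long, with effective lengths of 3.46 to 7.55 nt in replicate 1. Together they held 13.9, 17.5 and 19.6 RSEM-style counts, which at those effective lengths were listed as 301, 403 and 432 TPM, more than all 69 histone genes. Gm44346, opposite Hist1h2an, held 5, 6 and 8 counts. Whether the counting used strand is not given in the sources used here, so reads of an H2A gene and of its opposite-strand row cannot be told apart.

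The genes that make and handle histone mRNA were well measured in the same libraries. In the list for histone pre-mRNA processing, 16 of 17 symbols were found and all 16 had at least 1 TPM in every library (median 81.6 TPM). The highest were the Sm protein genes Snrpe with 581 ± 11.9, Snrpb with 458 ± 3.13 and Snrpg with 307 ± 51.3 TPM, and the lowest was Lsm11, of the U7 particle, with 8.89 ± 0.643 TPM (SD, n = 3). Slbp had 130, 129 and 124 TPM. In none of the lists was a gene called variable by edgeR.

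All 9 genes listed for transcription of histone genes were expressed, led by Cdk2 with 143 ± 4.42, Ccne1 with 107 ± 0.921 and E2f1 with 96.7 ± 6.65 TPM, with Pou2f1 lowest at 3.04 ± 1.49 TPM. Npat had 16.2 ± 1.14 TPM. For decay of histone mRNA 5 of 6 symbols were found, led by Upf1, the helicase of the decay machinery, with 62.5 ± 7.37, then Dcp2 with 25.2 ± 1.40 and Eri1 with 24.0 ± 0.971 TPM, and Xrn1 was lowest with 7.22 ± 0.954 TPM. All 8 chaperone genes were expressed, from Hat1 with 251 ± 7.18, Nasp with 153 ± 13.6 and Chaf1b with 116 ± 4.07 to Hira with 20.9 ± 3.19 TPM (SD, n = 3).

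The list of histone genes outside the clusters, mostly variants, had a higher sum than the Hist genes. Its 13 genes summed to 4102 ± 136 TPM, against 270 TPM for the 69 members, but 5 of the 13 were below the mean TPM of both Hist1h2ah and Hist1h2ap: H1f0 with 46.1, H1fx with 36.0 and H2afy2 with 33.3 TPM, and H1foo and H1fnt. H2afz, which encodes H2A.Z, had 1519 ± 53.5 TPM, H3f3b and H3f3a, which both encode the replacement histone H3, had 1006 ± 88.6 and 334 ± 11.97 TPM, and the germ-line genes H1foo and H1fnt were listed at 0. The 13 S phase genes all had at least 1 TPM in every library, led by Rrm2 with 573 ± 16.8, Mcm6 with 415 ± 11.4 and Mcm2 with 380 ± 7.80 TPM. Of 4 RNAs without a poly(A) tail, Rpph1 had 13.2 ± 1.68 TPM and Rn7sk 4.57 ± 3.14 TPM, Terc had 0, 1.24 and 0.60 TPM, and Rmrp was listed at 0. How well the libraries retained RNA without a tail was not tested.

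Over the lists, 1 of 16 pre-mRNA processing genes, 0 of 9 transcription genes, 2 of 5 decay genes, 3 of 8 chaperones, 5 of 11 tested replication-independent histones and 4 of 13 S phase genes differed beyond counting noise by the chi-square test, where 12.4% of all genes did. In simulated counts the chi-square test recovered 21.7% of 1.5-fold changes at mean counts of 20 to 200 and 98% above 200. The lists were not matched to all genes by count, so these shares are not a like comparison. Of all the genes in these lists, 1 replication-independent histone was called between quantifications, lower in the kallisto-style tables: H2afj, with 120 ± 7.47 TPM against 54.2 ± 2.01 TPM.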

How the data were processed

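The deposited tables of 3 total RNA libraries of F121-9 mouse ES cells were used, on mm10 with GENCODE M21 per the notes deposited with the libraries. Per those notes the gene tables and 1 kind of transcript table (RSEM-style columns) come from transcriptome alignments, and the other kind of transcript table (kallisto-style columns) from the reads directly. No source used here names the quantifiers, their versions or the strand setting. The estimated counts were deposited without normalization, as whole or fractional expected counts. The TPM values were scaled by the authors over all features, spike-ins included. The deposited bounds around TPM were read as given.

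Kallisto-style transcripts were summed by gene. The 26248 rows named by tRNA numbers, with 0.000133% to 0.00016% of counts, and 96 ERCC rows entered no test or library size. Rounded counts were filtered (filterByExpr) and scaled by TMM. Spread was tested in edgeR 4.0.16 (R 4.3.3) with an intercept-only quasi-likelihood fit, and against counting noise by chi-square with 2 degrees of freedom. Quantifications were compared in limma 3.58.1 on paired differences of log2(TPM + 1), a call needing an adjusted p under 0.05 and a difference of at least 1. Benjamini-Hochberg adjustment ran over all features tested. CPM are scaled to the counts on genes, or by TMM where called normalised. Poisson intervals are exact at 95%, and a count of 0 allows 3 counts. Scripts were tested on simulated data.

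Alternatives were DESeq2 size factors (1.42.0), ERCC scaling, no filter, kallisto-style counts, limma-voom, other pseudocounts and TPM minimums, rescaling to the protein-coding sum, and leaving out each library. Members and lists were chosen with earlier results of these data known. Genes were named if they had at least 1 TPM in all libraries, were the 2 highest or the lowest of a family, or were called; each list gave its 3 highest and its lowest gene, except 1 gene that is not reported here, and further genes were named after their values were seen. Windows, stem-loops and coding stretches were read from the M21 transcripts on the transcript strand. Symk and Zcchc6 matched no symbol.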

Additional observations from a re-analysis of the deposited data

How the results depend on the processing

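No paired analysis was possible because the libraries form 1 group and no second group shares their replicate numbers; the comparison of quantifications pairs 2 tables of the same library instead. No test of outlying samples was run on this group of 3. The number of members with at least 1 TPM in every library was 13, and 17 in the kallisto-style tables and 16 after rescaling to the protein-coding sum. It was 22 at a minimum of 0.5 TPM, 10 at 2 TPM and 4 at 5 TPM, and 15 to 20 with 1 library left out, highest without replicate 1. The summed TPM of all members was 270, against 191 in the kallisto-style tables and 248 to 314 with 1 library left out. The mean sums of H2B and H4 were 19.6 and 7.07 TPM in the kallisto-style tables and 33.9 and 11.9 TPM after rescaling, and the order of the family means was the same in each. Of 26 members with a mean of at least 1 TPM, 15 moved by less than 1 SD in the kallisto-style tables, 10 were lower by more and 1 was higher.

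The 5 variable genes became 2 with ERCC scaling, 34 with no filter, 16 with kallisto-style counts, 8 with limma-voom and 7 to 14 with 1 library left out. Members variable numbered 2 of 59 with no filter (34 of 22939 genes), 1 of 8 without replicate 2 (9 of 13583 genes) and 0 otherwise. Genes beyond counting noise numbered 4644 with ERCC scaling, 2800 with kallisto-style counts and 27 to 1470 with 1 library left out, lowest without replicate 1. Members beyond noise numbered 7 of 59 with no filter, where 1505 of 22939 genes were beyond noise, and the 7 were all H2A genes. H2A genes can share reads, so these are not 7 separate results. With 1 library left out, members beyond noise ran from 0 of 7 without replicate 1 (27 of 13489 genes) to 4 of 7 without replicate 3 (1470 of 13549). Genes and transcripts that differed between quantifications numbered 847 and 2348 at a mean of at least 5 TPM, against 1845 and 5121. Members called numbered 5 of 28, where 1845 of 14989 genes were called. They numbered 3 of 58 at a mean of at least 0.1 TPM (2156 of 23418 genes) and 2 of 7 at 5 TPM (847 of 10421). After rescaling they numbered 0 of 33 (2002 of 15808 genes). With 1 library left out they ran from 2 of 28 (1943 of 15049 genes) to 6 of 25 (1946 of 15040). Member transcripts called numbered 1 of 7 at 5 TPM (2348 of 14882 transcripts) and 0 of 33 after rescaling (5798 of 36659). With 1 library left out they ran from 0 of 28 (5060 of 31742 transcripts) to 4 of 25 (5030 of 31930). The cause of these changes was not tested, except that fewer features were tested at the stricter minimum.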
